A study of Mus musculus with 6 samples.

Results

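The genes described here are 40 genes of antioxidant defence, glutathione, iron and the pentose phosphate pathway, out of 34745 genes listed for each library. They were chosen by name, for functions that bear on lipid peroxidation, with no threshold on their values, and all 40 symbols were found in all 6 libraries. The set holds 4 genes of glutathione synthesis and recycling, 2 glutathione peroxidases, 4 glutathione transferases, 6 genes of NRF2 regulation and its classical targets, 5 genes of the thioredoxin system, 6 peroxiredoxins, 3 superoxide dismutase and catalase genes, 5 genes of iron storage, iron uptake and ferroptosis suppression, and 5 genes of the pentose phosphate pathway.

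RNA-seq was performed on CD8+ effector T cells (Teff) cultured from the spleens of Scd-1-/- mice and of wild type (WT) mice, with 3 libraries of each genotype numbered 1, 2 and 3. Scd-1 is a desaturase of the endoplasmic reticulum that makes the monounsaturated oleic and palmitoleic acids from saturated fatty acids. The knockout mice were B6.129-Scd1tm1Ntam/J and the WT mice were purchased C57BL/6J, all male and 6 to 8 weeks old, so the deletion was present in every tissue of the mouse and not only in T cells, and the WT mice were not described as littermates. CD8+ T cells of both genotypes were isolated with a MojoSort kit and were stimulated for 3 days with anti-CD3 (5 μg/mL) and anti-CD28 (0.5 μg/mL) in the presence of IL-2 (100 U/mL), after which IL-2 was continued for a further 3 days and RNA was taken on day 6. The study's methods speak in general of independent experiments, but neither they nor the labels tie these libraries to separate mice or cultures, so the p-values measure the spread between these libraries, which may be technical. A change in RNA per cell and a change in the share of cells that express a gene cannot be told apart in bulk RNA.

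Cells limit peroxides by 2 parallel thiol systems. In one, glutathione made from glutamate, cysteine and glycine serves the glutathione peroxidases, of which GPX4 reduces peroxidised lipids in membranes. In the other, thioredoxin serves the peroxiredoxins. Both systems are recharged with NADPH, much of which comes from the oxidative arm of the pentose phosphate pathway. Free ferrous iron splits peroxides into radicals, and ferritin stores iron in a less reactive form. The transcription factor NRF2, encoded by Nfe2l2 and held in check by KEAP1, drives many of these genes. Monounsaturated fatty acids, the product of Scd-1, are less easily peroxidised in membranes than polyunsaturated ones.

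The libraries held between 14034479 and 15866216 counts, and a gene listed at 0 could at this depth hold up to 3 counts, which is 0.189 to 0.214 CPM (counts scaled to the library total). That floor covers counting error only. Scd1 was at 45.3 to 58.2 FPKM (counts scaled by transcript length and library total) in WT and at 0.261 to 0.528 FPKM in Scd-1-/-, a log2 fold change of -7.04 that goes with the labels. The first principal component of all genes tested, with 42.9% of the variance, set both replicate 1 libraries apart from the other 4, and the second, with 36.3%, separated the genotypes. All 6 CD8 T cell markers were at 1 FPKM or above, with sums of 1606 to 1940 FPKM in WT and 1542 to 1786 FPKM in Scd-1-/-. Of these, Cd8a was lower in every Scd-1-/- library (27.9 to 36.6 FPKM) than in any WT library (43.2 to 47.6 FPKM). Such a gap on the lower side was seen in 8.32% of all genes tested, and the other CD8 T cell markers overlapped. Erythroid markers were under 1 FPKM for 8 of 8 genes, with Alas2, Hbb-bs and Slc4a1 among those at 0, and summed to 0.301 to 0.787 FPKM in WT and 0.689 to 1.06 FPKM in Scd-1-/-. Of 9 myeloid markers, only Cd68 reached a mean of 1 FPKM, with Adgre1, Mpo and S100a9 at 0, and their sum was 8.40 to 17.8 FPKM in WT and 10.5 to 29.0 FPKM in Scd-1-/-. Cd14, with a mean of 0.918 FPKM, was at 0.179 to 0.461 FPKM in WT and at 1.14 to 1.89 FPKM in Scd-1-/-. Of 7 B cell markers, Ighm and Cd79b reached 1 FPKM while Ms4a1, Pax5 and Blnk were among those at 0 (sums of 146 to 269 FPKM in WT and 97.6 to 146 FPKM in Scd-1-/-). Of 4 NK cell markers, Fcer1g and Klrb1c reached it and none was at 0 in all 6 libraries (sums of 5.55 to 11.5 FPKM in WT and 20.1 to 76.3 FPKM in Scd-1-/-). Of 4 CD4 T cell markers it was Zbtb7b only, with no marker at 0 throughout (6.15 to 12.2 FPKM in WT and 8.01 to 11.2 FPKM in Scd-1-/-), and of 5 platelet markers none, with Gp9 at 0 (0.144 to 0.224 FPKM in WT and 0.184 to 0.541 FPKM in Scd-1-/-). The part of other cells in the values of the 40 genes was not tested.

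All 40 genes had a mean of at least 1 FPKM, and 3 of them (Srxn1, Nfe2l2 and Nqo1) differed by 0.5 or more on the log2 scale in either direction, against 12.9% of all genes tested. Srxn1, which encodes the sulfiredoxin that restores overoxidised peroxiredoxins, was about 2-fold higher in Scd-1-/- Teff and was the only one of the 40 past the study's thresholds (1 or more in size on the log2 scale, with an unadjusted p under 0.001). Over all 9627 genes tested, 0.738% passed those thresholds. None of the 40 had an adjusted p under 0.05 by edgeR's quasi-likelihood method after Benjamini-Hochberg adjustment over all genes tested, where 0.114% of all genes did. At an unadjusted p under 0.05, 3 of the 40 were called (Srxn1 and Ftl1 higher, Nfe2l2 lower), against 10.1% of all genes. DESeq2 gave 1 adjusted call, Srxn1, against 2.76% of all genes, and limma gave 0 with a pseudocount of 1 or 0.1 FPKM. With the replicate number as a block, edgeR's adjusted p called Srxn1 only, against 4.7% of all genes, and Srxn1 was again the only member past the study's thresholds, against 1.91%. At an unadjusted p under 0.05 the blocked fit called 7 of the 40, with Gsto1 and Tfrc higher and Prdx6 and G6pdx lower beside the 3 named above, against 22.4% of all genes. The log2 fold changes of the 40 genes had a median of 0.02, with 22 above 0 and 18 below, and the median over all genes tested was -0.00051, with 49.9% above 0. Their median size was 0.155 on the log2 scale, beside 0.178 for all genes.

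The standard error of the log2 fold change had a median of 0.179 over the 40 genes, and the 95% interval lay within 1 on either side of 0 for 33 of them and within 0.5 for 10. The 7 genes whose interval reached past 1 were Srxn1, Nfe2l2, Nqo1, Gpx1, H6pd, Ncoa4 and Tfrc. All these intervals are from the fit without the replicate block. With the block, the standard error was 0.241 in place of 0.685 for Gpx1 and 0.135 in place of 0.268 for Tfrc. For H6pd it was 0.423 in place of 0.442.

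**Figure D1:**
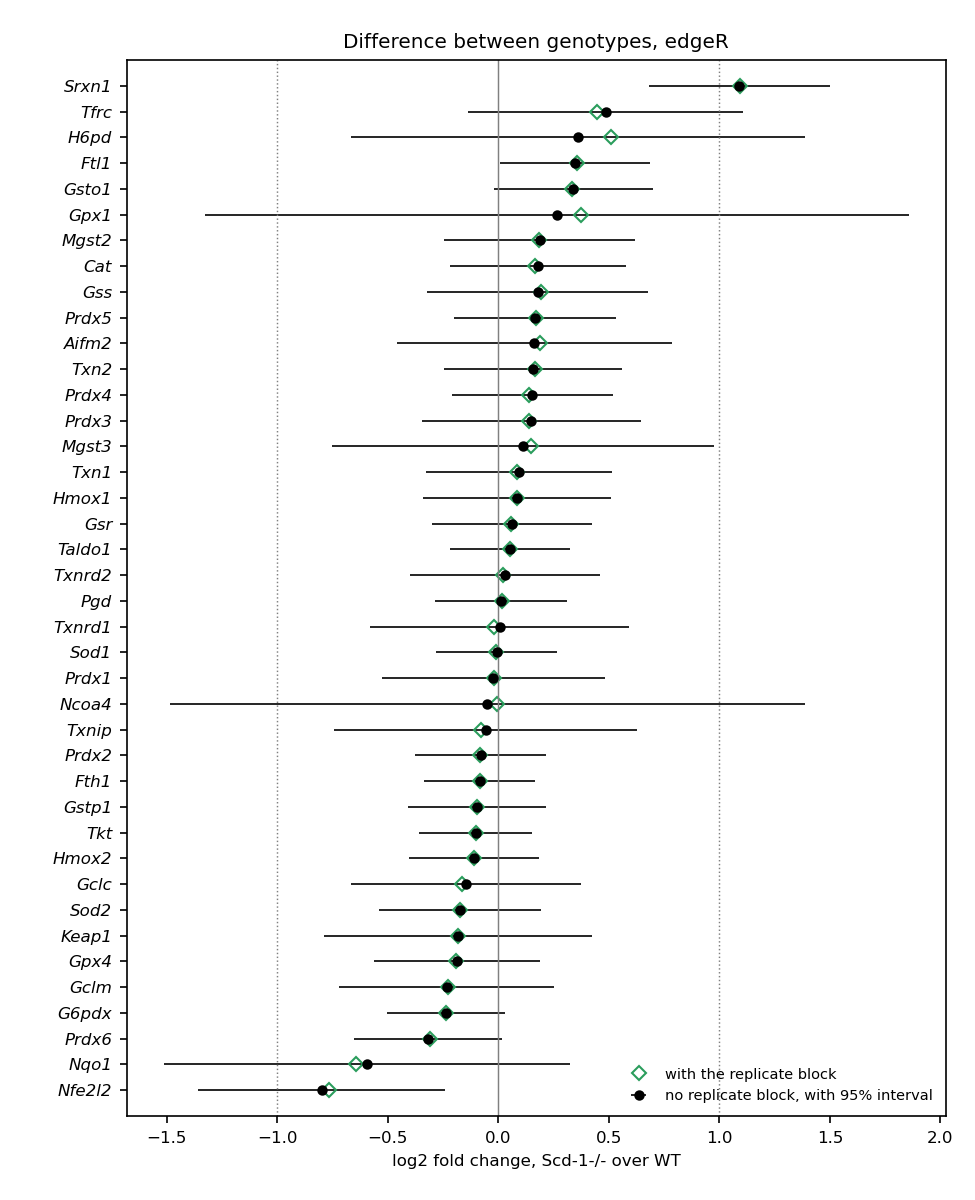
Log2 fold change of Scd-1-/- over WT for the 40 genes, in order of size (x axis). Black points and bars give edgeR's estimate and 95% interval from 3 libraries of each genotype, green diamonds the estimate with the replicate block, and dotted lines mark 1 and -1. Srxn1 lies at 1.09 and Nfe2l2 at -0.80, and 33 of the 40 intervals stay between the dotted lines.

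On the FPKM scale, which corrects for transcript length, the levels of the 40 genes spanned a wide range, and 32 of the 40 lay above the median level of all genes tested. Fth1, the ferritin heavy chain that oxidises iron for storage, was the highest in every library at 1479.5 to 1732 FPKM. Sod1, the cytosolic superoxide dismutase, came second in every library at 627 to 730 FPKM. Txn1, the cytosolic thioredoxin, and Ftl1, the ferritin light chain, followed with means of 454 and 362 FPKM, and their order was not the same in all libraries. Tkt, the transketolase of the non-oxidative pentose phosphate arm, had a mean of 204 FPKM and lay above the next gene in every library. Gstp1, Prdx1 and Taldo1 completed the 8 genes over 100 FPKM, with means of 157, 144 and 101 FPKM. Gstp1 and Prdx1 changed places between libraries, whereas Prdx1 lay above Taldo1 in each of them. At the other end, 8 genes had means under 5 FPKM: Srxn1, Gss, Nfe2l2, Txnrd2, Aifm2, Gclm, Ncoa4 and Nqo1, the last being the lowest at 1.48 FPKM. The 40 genes together took 0.837% to 0.956% of the counts and 1.14% to 1.34% of the summed FPKM of a library, and Fth1 alone made up 33.0% to 37.1% of their summed FPKM.

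**Figure D2:**
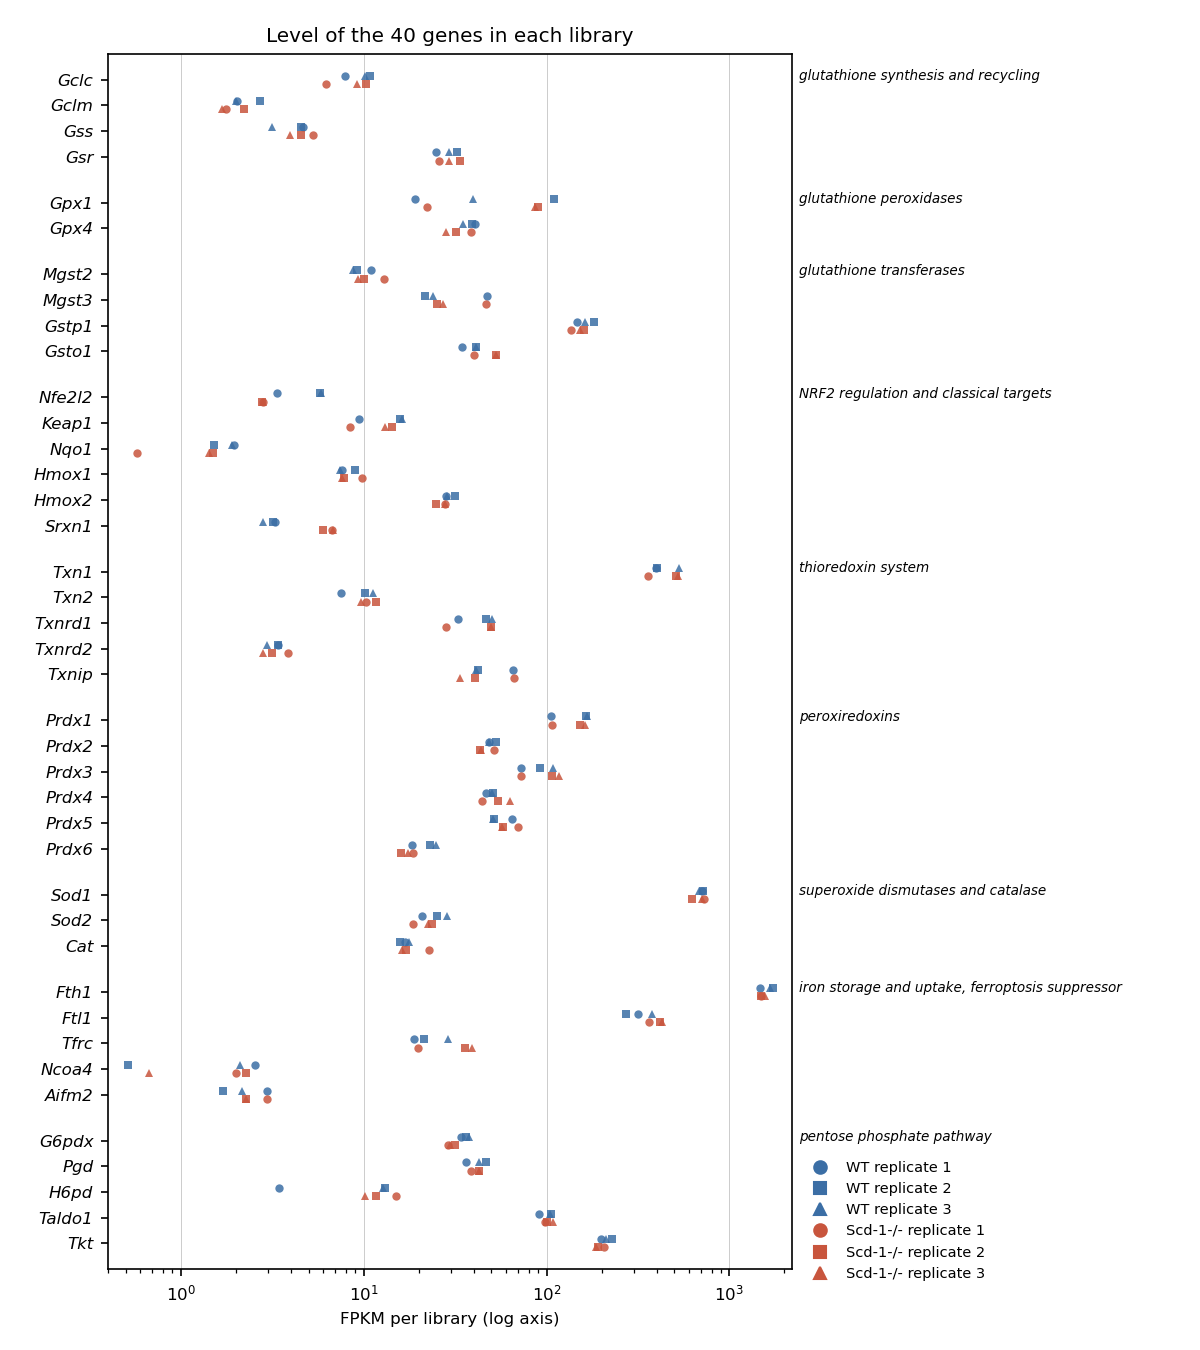
FPKM of each of the 40 genes in each of the 6 libraries (log axis), grouped by role. Blue marks are WT and red marks Scd-1-/-, and the shape gives the replicate number. Fth1 lies highest, between 1479.5 and 1732 FPKM, and Nqo1 has the lowest mean, 1.48 FPKM.

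Of the 40 log2 fold changes, the highest (Srxn1) and the lowest (Nfe2l2) both belonged to the 6 genes of NRF2 regulation and its targets. Srxn1 was at 3.28, 3.18 and 2.83 FPKM in WT replicates 1, 2 and 3 and at 6.68, 6.03 and 6.77 FPKM in Scd-1-/- replicates 1, 2 and 3. Every Scd-1-/- library was thus above every WT library, from 309 to 390 counts against 146 to 181. The mean was 3.10 ± 0.240 FPKM for WT libraries and 6.49 ± 0.403 FPKM for Scd-1-/- libraries (SD, n = 3), and the log2 fold change was 1.09 with a standard error of 0.176 and a 95% interval of 0.68 to 1.50. The unadjusted p in edgeR's quasi-likelihood test was 3.14e-04 and the Benjamini-Hochberg adjusted p was 0.0847. The adjusted p became 0.0136 with the replicate block in edgeR, and 0.0437 without WT replicate 1, where 1.38% of all genes were called. Leaving out single libraries kept the log2 fold change between 1.01 and 1.15, but Srxn1 no longer passed the thresholds of the study when replicate 2 or 3 of WT was left out (1.11 and 1.01), nor when replicate 2 or 3 of Scd-1-/- was (1.14 and 1.06), since the unadjusted p then exceeded 0.001.

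Nfe2l2 showed lower values in all 3 Scd-1-/- libraries, with an unadjusted p of 0.0111 in edgeR's test and no adjusted call with all 6 libraries. It was at 3.36, 5.76 and 5.83 FPKM in WT replicates 1, 2 and 3 and at 2.80, 2.78 and 2.83 FPKM in the Scd-1-/- replicates. The genotypes did not overlap, and WT replicate 1 lay nearer to the Scd-1-/- libraries than to the other 2 WT libraries. The log2 fold change was -0.80 with a standard error of 0.241 and a 95% interval of -1.36 to -0.24, the edgeR adjusted p was 0.299, and with the replicate block it was 0.0738. Without WT replicate 1 the log2 fold change was -1.01 with an edgeR adjusted p of 0.0528, and Nfe2l2 then passed the thresholds of the study (1.49% of all genes did in that fit). With replicates 2 and 3 of both genotypes alone, the log2 fold change was again -1.01, and the edgeR adjusted p was 0.00638. This subset was chosen because replicate 1 had been seen to stand apart. Both fits leave out the WT library nearest to the Scd-1-/- values, which by itself widens the difference. The fit of replicates 2 and 3 called 5 of the 40 by adjusted p, against 12.6% of all genes. It passed Nfe2l2 and Srxn1 by the study's thresholds, against 3.83% of all genes.

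The other 4 genes of this group had no adjusted call for genotype in any fit run. Nqo1, the quinone reductase that is a classical NRF2 target, was at 1.95, 1.51 and 1.90 FPKM in WT and at 0.579, 1.51 and 1.42 FPKM in Scd-1-/-, with a log2 fold change of -0.59 and a 95% interval of -1.51 to 0.32. It rested on few counts (14 to 46 per library), and Scd-1-/- replicate 1 was far below the other 5 libraries. Without that library the log2 fold change was -0.27, and with replicates 2 and 3 alone it was -0.19. Keap1, which targets NRF2 for degradation, had a log2 fold change of -0.18. Hmox1, the inducible heme oxygenase that frees iron from heme, was at 7.39 to 9.01 FPKM in WT and 7.58 to 9.74 FPKM in Scd-1-/-, with a log2 fold change of 0.09, which became -0.06 with replicates 2 and 3 alone. Hmox2, the constitutive form, had a log2 fold change of -0.11. Its FPKM was higher in every WT library than in any Scd-1-/- library by a narrow margin, but its TMM-scaled CPM overlapped.

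Non-overlapping groups were not more frequent in the set than elsewhere. By FPKM, the genotypes did not overlap in 5 of the 40 genes, against 16% of all genes tested. The 5 comprised Srxn1 on the higher side (7.67% of all genes) and Nfe2l2, Nqo1, Hmox2 and G6pdx on the lower side (8.32% of all genes). By TMM-scaled CPM, the genotypes did not overlap in 3 of the 40, Srxn1, Nfe2l2 and G6pdx, against 16.1% of all genes.

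To show what the start sites of these genes hold, promoter sequences were taken from RefSeq on GRCm38.p6, which matched 36 of the 40 genes (not Gclc, Gsr, Hmox1 and Prdx6). Each window held 250 bases before and 50 bases after a start. Both strands were searched for the letters TGACNNNGC, the core of the antioxidant response element that NRF2 binds with small MAF proteins, for the variant TGAGNNNGC, and for TGAGTCA, the site of AP-1. The motifs can overlap, as TGAGTCAGC holds both TGAGTCA and TGAGNNNGC. TGACNNNGC was in a window of 9 of the 36 genes (25%), beside 14% of all genes, and in 18.8% of their 48 windows, beside 12.4% of all windows. The letters TGAGNNNGC were in 5 of the 36 (13.9%), beside 19.8% of all genes, and in 10.4% of their windows, beside 17.6%. TGAGTCA was in 4 of the 36 (11.1%), namely Gstp1, Mgst2, Prdx1 and Srxn1, beside 5.95% of all genes, and in 8.33% of their windows, beside 5.2%. Either of the first pair was in 12 of the 36 (33.3%), beside 30.8% of all genes, but in 25% of their windows, beside 27.8%.

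The stretches printed next are those of the members whose genotypes did not overlap either by FPKM or by TMM-scaled CPM (Srxn1, Nfe2l2 and G6pdx). Printed for comparison are textbook NRF2 targets whose genotypes overlapped, chosen among those with a match (Gclm, Txnrd1, Prdx1 and Gstp1). Nqo1, a classical NRF2 target, was among the 36 genes and held no match. All stretches run 5′ to 3′ on the strand of the gene, and capitals mark the letters of any of the 3 motifs on either strand. Srxn1 is printed for all 250 bases before its start (chr2:152105274-152105523, + strand), Nfe2l2 for chr2:75704874-75704913 (- strand), G6pdx for chrX:74428908-74428957 (- strand), Gclm for chr3:122245403-122245452 (+ strand), Txnrd1 for chr10:82859094-82859143 (+ strand), Prdx1 for chr4:116685349-116685497 (+ strand) and Gstp1 for chr19:4037957-4038006 (- strand).
Srxn1: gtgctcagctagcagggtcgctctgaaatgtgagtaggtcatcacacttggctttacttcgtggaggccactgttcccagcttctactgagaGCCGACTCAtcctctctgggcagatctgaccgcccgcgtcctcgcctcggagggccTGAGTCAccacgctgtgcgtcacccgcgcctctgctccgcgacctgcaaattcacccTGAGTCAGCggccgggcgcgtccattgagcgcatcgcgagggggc
Nfe2l2: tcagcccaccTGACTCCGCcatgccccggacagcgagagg
G6pdx: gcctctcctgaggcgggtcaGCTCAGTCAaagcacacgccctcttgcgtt
Gclm: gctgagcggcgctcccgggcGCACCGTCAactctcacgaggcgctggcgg
Txnrd1: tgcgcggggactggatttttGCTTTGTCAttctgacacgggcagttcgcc
Prdx1: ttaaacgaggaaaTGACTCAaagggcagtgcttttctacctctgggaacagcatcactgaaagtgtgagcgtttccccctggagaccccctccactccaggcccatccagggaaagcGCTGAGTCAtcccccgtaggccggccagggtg
Gstp1: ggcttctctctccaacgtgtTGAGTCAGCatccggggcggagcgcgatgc
Srxn1 holds 3 marked places upstream of its start, which begin at positions -158, -102 and -45 counted from the start. The last of these, TGAGTCAGC, has the same letters as the one at -74 of Gstp1, whose log2 fold change was -0.10. Prdx1 holds TGACTCA at -237 and GCTGAGTCA, which has TGACNNNGC on the other strand and TGAGTCA on its own, at -133. Matches outside the printed stretches lie at -9 in Gstp1 and after the start in Srxn1 and Prdx1. A match of letters is a description and says nothing of binding in these cells.

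Sulfiredoxin, the product of Srxn1, acts on the typical 2-Cys peroxiredoxins, which include Prdx1 to Prdx4. All 6 peroxiredoxins had 95% intervals within 1 of 0 and log2 fold changes between -0.32 and 0.17. Prdx1, the most abundant of them, was at 106, 165 and 167 FPKM in WT and at 107, 153 and 163 FPKM in Scd-1-/-, a log2 fold change of -0.02. In both genotypes replicate 1 was the lowest. Prdx3, the mitochondrial form, had means of 90.8 ± 18.2 and 98.8 ± 23.1 FPKM (SD, n = 3). Prdx6, which reduces phospholipid peroxides with a single cysteine, was at 18.3, 22.96 and 24.7 FPKM in WT and at 18.6, 16.0 and 17.4 FPKM in Scd-1-/-. Its log2 fold change of -0.32 had a 95% interval of -0.65 to 0.02. Only with replicates 2 and 3 alone was it among the adjusted calls of edgeR. Prdx2 and Prdx5 had log2 fold changes of -0.08 and 0.17, and Prdx4, which sits in the endoplasmic reticulum, of 0.15.

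Of the 5 thioredoxin genes, none had a log2 fold change over 0.16 in size. Txnrd1, the cytosolic selenoprotein that recharges thioredoxin with NADPH, was at 32.6, 46.9 and 50.3 FPKM in WT and at 28.2, 50.001 and 49.8 FPKM in Scd-1-/-. The replicate 1 library was low in both genotypes, and the log2 fold change of 0.01 changed sign with library totals alone (-0.02) and with the block (-0.02). The mitochondrial pair had log2 fold changes of 0.16 (Txn2) and 0.03 (Txnrd2), and Txn1 one of 0.09. Txnip, which binds and inhibits thioredoxin and limits glucose uptake, was at 65.3, 42.1 and 41.2 FPKM in WT and at 66.6, 40.5 and 33.8 FPKM in Scd-1-/-. Here the replicate 1 library was high in both genotypes, and the log2 fold change between genotypes was -0.06 with a 95% interval of -0.74 to 0.63.

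The glutathione genes gave no call between genotypes. Gclc and Gclm, the catalytic and modifier subunits of the enzyme that limits glutathione synthesis, had log2 fold changes of -0.15 and -0.23. Gss, which adds glycine, and Gsr, which reduces oxidised glutathione with NADPH, had log2 fold changes of 0.18 and 0.06, and all 4 intervals lay within 1 of 0. Gpx4, the peroxidase whose loss leads to ferroptosis, was at 40.4, 39.3 and 34.7 FPKM in WT and at 38.7, 32.2 and 28.2 FPKM in Scd-1-/-. The genotypes overlapped, and the log2 fold change was -0.19 with a 95% interval of -0.56 to 0.19. With 1 library left out it ranged from -0.32 to -0.087. Gpx1, the cytosolic hydrogen peroxide peroxidase, varied most of the 40 genes between libraries, by 5.72-fold. It was at 19.1, 110 and 39.4 FPKM in WT and at 22.2, 90.3 and 86.2 FPKM in Scd-1-/-, with the replicate 1 library lowest in each genotype. Its log2 fold change of 0.26 had a 95% interval of -1.33 to 1.86. With the replicate block the value was 0.37, and its standard error was 0.241 in place of 0.685.

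The 4 glutathione transferases overlapped between genotypes as well. Gsto1, an omega class transferase that also reduces dehydroascorbate, was at 34.7, 41.2 and 41.3 FPKM in WT and at 40.03, 53.1 and 52.6 FPKM in Scd-1-/-. Its log2 fold change was 0.34 with a 95% interval of -0.02 to 0.70. Gsto1 was among the 5 adjusted calls in edgeR with replicates 2 and 3 alone. Its gene lies on chromosome 19 (from base 47854970), as does the targeted Scd1 (from base 44394455). Any bearing of this position was not tested. Gstp1, the most abundant transferase of the set, had a log2 fold change of -0.10, and the microsomal Mgst2 and Mgst3 had 0.19 and 0.11.

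In the superoxide and catalase genes, all 3 intervals lay within 1 of 0. Sod1 had a mean of 702 ± 18.2 FPKM for WT libraries and 687 ± 53.9 FPKM for Scd-1-/- libraries (SD, n = 3), a log2 fold change of -0.01. Sod2, the mitochondrial dismutase, had a log2 fold change of -0.17. Cat, the peroxisomal catalase, was at 15.8 to 17.6 FPKM in WT and at 16.3 to 22.7 FPKM in Scd-1-/-, where replicate 1 was the highest, and its log2 fold change was 0.18.

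None of the iron genes had an adjusted call with all 6 libraries, and the highest log2 fold changes among them were those of Tfrc and Ftl1. Ftl1 was at 316, 271 and 379 FPKM in WT and at 362, 419 and 426 FPKM in Scd-1-/-. The genotypes overlapped by 1 library, WT replicate 3, which lay above Scd-1-/- replicate 1. Its log2 fold change was 0.35 with a 95% interval of 0.01 to 0.68 and an edgeR adjusted p of 0.482. Fth1, the partner of Ftl1 in ferritin, was at 1479.5, 1732 and 1676 FPKM in WT and at 1480.0, 1494 and 1559 FPKM in Scd-1-/-, with a log2 fold change of -0.08 and a 95% interval of -0.34 to 0.17. Tfrc, the transferrin receptor that brings iron into the cell, was at 18.8, 21.3 and 28.8 FPKM in WT and at 19.7, 35.8 and 39.1 FPKM in Scd-1-/-. The genotypes overlapped. The log2 fold change was 0.49 with a 95% interval of -0.14 to 1.11, the edgeR adjusted p was 0.607, and with replicates 2 and 3 alone Tfrc was among the adjusted calls. The log2 fold change was 0.30 when Scd-1-/- replicate 3 was left out and 0.73 when replicate 1 of that genotype was, the extremes with 1 library omitted.

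Ncoa4 and Aifm2 were low in all libraries. Ncoa4, the receptor that delivers ferritin to the lysosome, was at 2.54, 0.514 and 2.11 FPKM in WT and at 2.00, 2.26 and 0.673 FPKM in Scd-1-/-, so that 1 library of each genotype was far below the others. Its processed copy Gm6768 is 99.9% identical over 1878 of the 4065 bases of the Ncoa4 transcript and held 275% of the counts of Ncoa4, so the value of Ncoa4 is uncertain. The sum of both was 807, 398 and 612 counts in WT and 738, 704 and 628 counts in Scd-1-/-. Aifm2, the ferroptosis suppressor that recharges coenzyme Q, had a log2 fold change of 0.16 with a 95% interval of -0.46 to 0.78.

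No pentose phosphate gene was called between genotypes by adjusted p, and the intervals of 4 of the 5 lay within 1 of 0. G6pdx, the glucose-6-phosphate dehydrogenase that opens the oxidative arm, was at 33.9, 36.2 and 37.6 FPKM in WT and at 28.8, 31.5 and 29.5 FPKM in Scd-1-/-. All 3 Scd-1-/- libraries were below all 3 WT libraries. The log2 fold change was -0.24 with a 95% interval of -0.51 to 0.03 and an edgeR adjusted p of 0.549. With the block, the unadjusted p in edgeR was 0.0381 and the adjusted p was 0.195. Pgd, the next dehydrogenase in that arm, had a log2 fold change of 0.01, which was -0.01 with library totals alone. Taldo1 and Tkt of the non-oxidative arm had log2 fold changes of 0.05 and -0.10 with intervals within 0.5 of 0. H6pd, the related dehydrogenase in the endoplasmic reticulum, was at 3.45, 13.1 and 12.8 FPKM in WT and at 15.004, 11.7 and 10.2 FPKM in Scd-1-/-. WT replicate 1 stood far below the other 5 libraries, with 308 counts against 949 to 1375. The log2 fold change was 0.36 with a 95% interval of -0.67 to 1.39, and it was -0.04 without WT replicate 1.

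**Figure D3:**
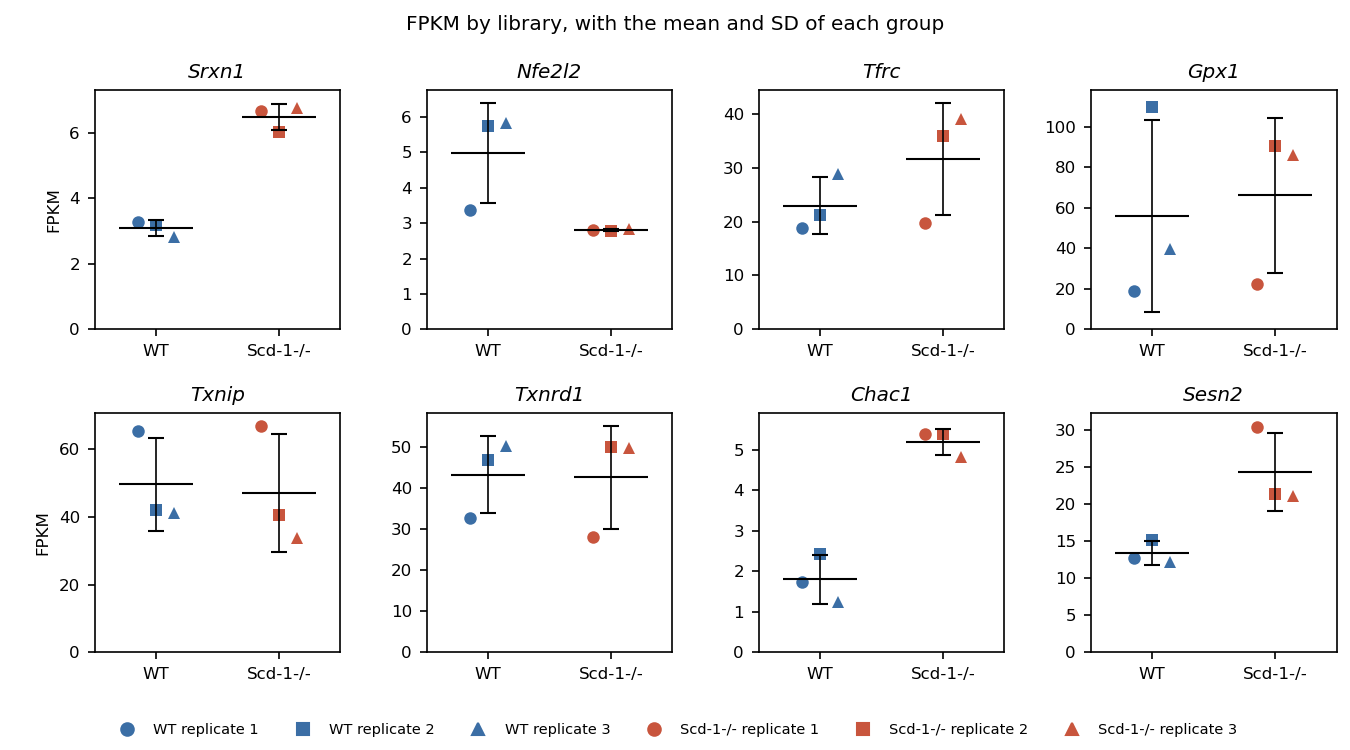
FPKM in each library for 6 of the 40 genes and for Chac1 and Sesn2 of the same pathways, with the mean (long bar) and SD (n = 3) of each genotype. All y axes start at 0 and differ in scale. Srxn1, Chac1 and Sesn2 are higher in every Scd-1-/- library than in any WT library, whereas replicate 1 is apart in both genotypes for Txnip and Txnrd1. Gpx1 is lowest in replicate 1 of each genotype, and WT replicate 3 is also low.

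By adjusted p, the replicate number gave more calls than genotype did, in this set and over all genes tested. With the replicate block, genotype gave 1 call (Srxn1), against 4.7% of all genes. In a fit with replicate number and genotype, 8 of the 40 genes had an adjusted p under 0.05 for the replicate number in edgeR's quasi-likelihood F test, against 15.9% of all genes tested. In 6 of them replicate 1 was lower than replicates 2 and 3 (7.49% of all genes), and these were Gpx1, Keap1, Txnrd1, Prdx1, Prdx3 and Tfrc. In the other 2, Mgst3 and Txnip, replicate 1 was higher (8.37% of all genes). By rank alone, both replicate 1 libraries were the lowest of the 6 in FPKM for 16 of the 40 genes, against 23% of all genes, and the highest for 6, against 21.6%. What a replicate number stands for is not given in the sources used here.

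The 6 genes that were lower in replicate 1 lie in the thioredoxin, peroxiredoxin, glutathione, NRF2 and iron groups. Gpx1 in replicate 1 was at 0.267 of its level in replicates 2 and 3 (adjusted p = 0.0101 in edgeR), and this ratio rests also on WT replicate 3, which at 39.4 FPKM was closer to replicate 1 than the other libraries were. Keap1 was at 0.613, Txnrd1 at 0.629, Tfrc at 0.647, Prdx1 at 0.673 and Prdx3 at 0.701 of the level in replicates 2 and 3. Among the genes on the other side, Mgst3 was at 47.3, 21.6 and 24.0 FPKM in WT and at 47.0, 25.1 and 27.3 FPKM in Scd-1-/-, so that replicate 1 was 1.97-fold higher with hardly any difference between genotypes. Txnip was 1.71-fold higher in replicate 1 (adjusted p = 0.00872 in edgeR). Gpx1, Mgst3, Keap1 and Txnip were called for the replicate number in every fit run, and Txnrd1 in every fit but the one without Scd-1-/- replicate 1. The marker sums moved with the replicate number too: those of CD8 T cell, B cell and myeloid markers were highest in replicate 1 of each genotype, and those of CD4 T cell, NK cell, erythroid and platelet markers were lowest there. Their part in these values was not tested.

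**Figure D4:**
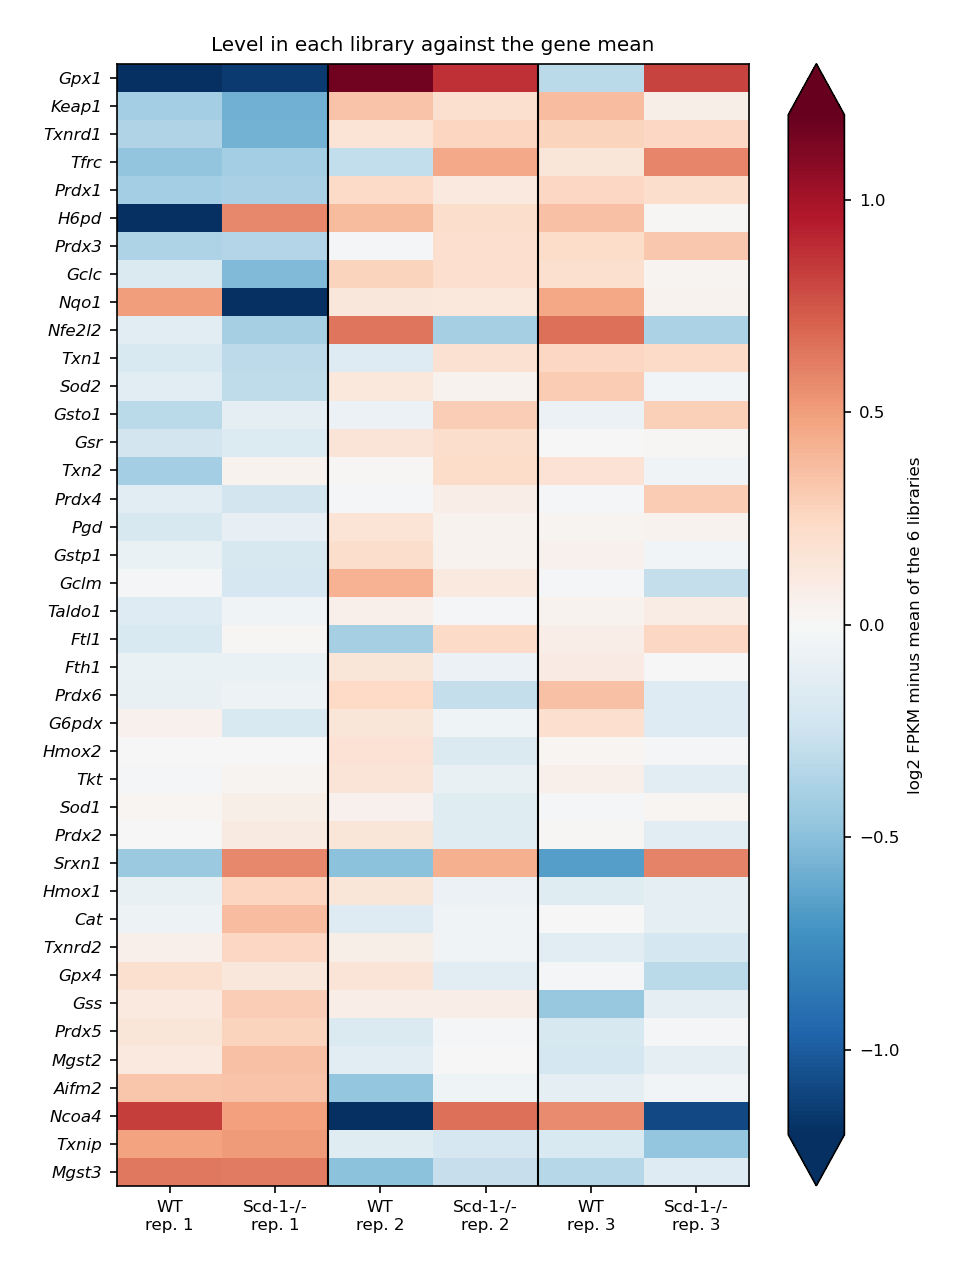
Level of each of the 40 genes in each library as log2 FPKM minus the mean of the 6 libraries (colour, limits at 1.2 on either side), with libraries in pairs by replicate number and genes ordered from lower to higher in replicate 1. Gpx1, Keap1 and Txnrd1 at the top are low in both replicate 1 libraries and Mgst3 and Txnip at the bottom are high, while Srxn1 and Nfe2l2 alternate by genotype within each pair.

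**Figure D5:**
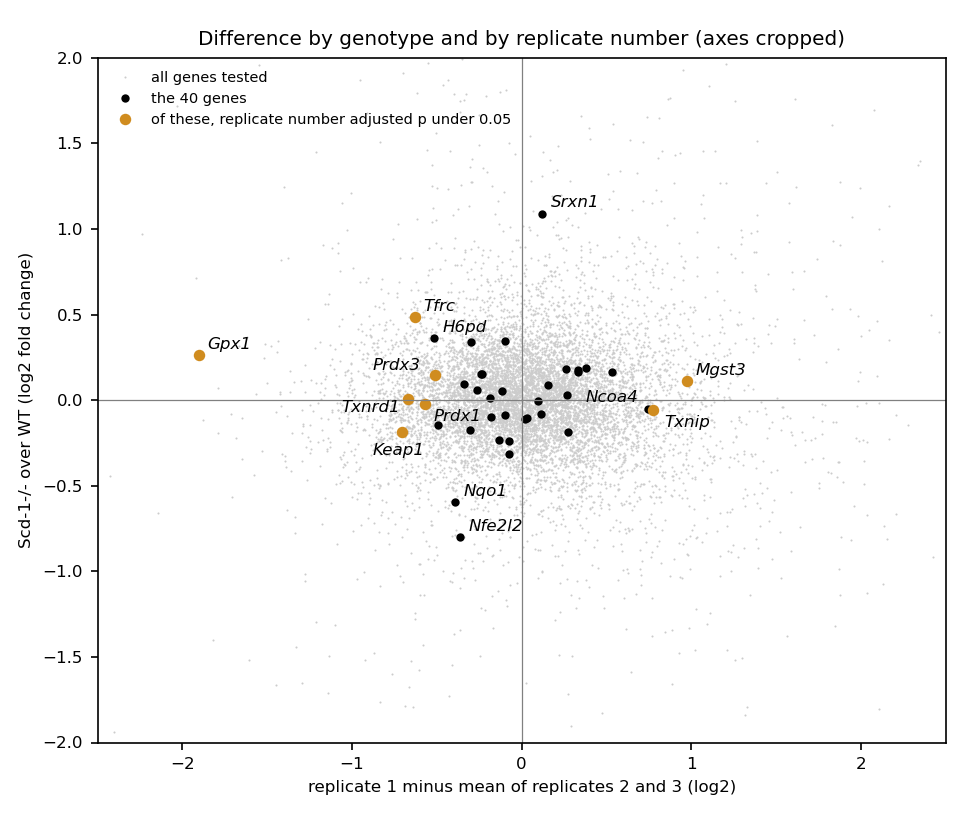
Log2 fold change between genotypes (y axis) against the log2 difference of replicate 1 from the mean of replicates 2 and 3 (x axis), from edgeR, for all genes tested (grey), the 40 genes (black) and the 8 of them called for the replicate number (orange). Both axes are limited, so some grey points lie outside. Srxn1 stands at the top near 0 on the x axis, and Gpx1 at the far left.

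The other genes of the same pathways were taken from a list of 119 by function, of which 98 passed the filter of 1 FPKM. Their log2 fold changes had a median of 0.05, with 61 above 0 and 37 below, where 49.9% of all genes were above 0. In the fit without the block, none had an edgeR adjusted p under 0.05 or passed the study's thresholds, and 10 had an unadjusted p under 0.05 (6 higher and 4 lower), against 10.1% of all genes. DESeq2 called 6 of the 98, against 2.76% of all genes. With the replicate block, edgeR called 8, or 4 in each direction, against 4.7% of all genes, and 2 (Chac1 and Ncf1) passed the thresholds of the study, against 1.91% of all genes. At an unadjusted p under 0.05 it called 19 of the 98, against 22.4% of all genes.

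The 4 that were higher in Scd-1-/- with the block were Gpx8, Chac1, Sesn2 and Sqstm1. Chac1, which breaks down glutathione and is a target of the integrated stress response, was at 1.73, 2.44 and 1.25 FPKM in WT and at 5.38, 5.37 and 4.81 FPKM in Scd-1-/-. The genotypes were well apart, with a log2 fold change of 1.54 ± 0.302 (SE), an edgeR adjusted p of 0.118 and one of 0.0181 with the block. Sesn2, a stress-induced sestrin, was at 12.7, 15.2 and 12.2 FPKM in WT and at 30.5, 21.4 and 21.2 FPKM in Scd-1-/- (log2 fold change 0.89, edgeR adjusted p = 0.164, and 0.0259 with the block). Sqstm1, the p62 adaptor that binds KEAP1 and is itself an NRF2 target, had means of 61.0 ± 9.58 and 91.1 ± 9.67 FPKM (SD, n = 3), with every Scd-1-/- library above every WT library. Its log2 fold change was 0.60, with an edgeR adjusted p of 0.258 and of 0.0208 with the block. Gpx8, a peroxidase of the endoplasmic reticulum, was low, at 0.844, 0.701 and 0.415 FPKM in WT and at 1.71, 3.28 and 3.47 FPKM in Scd-1-/-, from 6 to 13 and 27 to 56 counts. Its log2 fold change was 2.11, with an edgeR adjusted p of 0.133 and of 0.0396 with the block.

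The 4 that were lower in Scd-1-/- with the block were Ncf1, Idh2, Mboat1 and Gstt1. Idh2, the mitochondrial isocitrate dehydrogenase that makes NADPH, was at 11.5, 14.8 and 12.4 FPKM in WT and at 8.18, 6.92 and 5.62 FPKM in Scd-1-/-. No library overlapped, with a log2 fold change of -0.88, an edgeR adjusted p of 0.154 and one of 0.0221 with the block. Ncf1, a cytosolic subunit of the phagocyte NADPH oxidase, was at 14.8, 11.2 and 11.1 FPKM in WT and at 8.37, 5.47 and 4.58 FPKM in Scd-1-/-. It was highest in replicate 1 of each genotype, with a log2 fold change of -0.99, an edgeR adjusted p of 0.233 and one of 0.00694 with the block. Mboat1, a phospholipid acyltransferase that can act against ferroptosis, and Gstt1, a theta class transferase, had log2 fold changes of -0.84 and -0.83, with edgeR adjusted p of 0.0345 and 0.0376 with the block and of 0.535 and 0.433 without it. The genotypes overlapped for Mboat1 and not for Gstt1. With 1 library left out, the log2 fold change ranged from -1.14 to -0.58 for Mboat1 and from -1.05 to -0.48 for Gstt1.

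Some of the 40 genes share sequence or position with other genes, which limits their values. Of the 40, 8 have a copy elsewhere of at least 95% identity over at least 300 bases. Ftl1-ps1, a copy of Ftl1 with 99.6% identity, held 17.3% of the counts of Ftl1, and the sum of both gave a ratio of Scd-1-/- to WT of 1.24, beside 1.25 for Ftl1 alone. Tdpx-ps1, a copy of Prdx2, held 4.10% of its counts. For 11 of the 40, exons overlap a gene on the other strand. Neighbours with many counts included Acss2 beside Gss (183% of the counts of Gss), Junb beside Prdx2 (90.1%) and Ikbkg beside G6pdx (22.1%). Whether strand was used in counting is not given in the sources used here, so reads from such pairs may not have been told apart. Neither Srxn1 nor Nfe2l2 was among the genes with a copy or such an overlap.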

How the data were processed

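RNA of 6 Teff libraries was sequenced. The labels name Trizol extraction, polyadenylated RNA and a VAHTS library kit, whereas the study's methods name a column kit and a TruSeq Stranded Total RNA kit. The authors aligned reads with HISAT2 and counted them per gene with StringTie 1.3.0 on GRCm38, and the authors deposited whole-number counts and FPKM values (counts scaled by gene length and by the library total, without TMM factors) per gene and library.

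Counts were fitted with edgeR 4.0.16 in R 4.3.3 (glmQLFit and glmQLFTest, TMM scaling, no replicate block) across 9627 genes whose mean FPKM was 1 or more, with Benjamini-Hochberg adjustment over all of them. All 40 genes passed this filter. The study's thresholds (1 in size on the log2 scale and p of 0.001) were used beside an adjusted p of 0.05. The replicate number was tested as both replicate coefficients in the fit with replicate and genotype. Whether numbers pair the libraries was checked from deviations of log values from the genotype means: same-numbered libraries correlated across genes at r = 0.595, 0.306 and 0.470 for replicates 1, 2 and 3, and the crossed pairs of replicates 2 and 3 at 0.380 and 0.180. The 3 same-number values exceeded the limit of 0.1 set for pairing, but so did these crossed pairs. WT replicate 3 correlated more with Scd-1-/- replicate 2 (0.380) than WT replicate 2 did (0.306). The check thus sets replicate 1 apart but cannot show that replicates 2 and 3 pair by number. Blocked values are given where a call changes. The replicate numbers come from the labels, and genes are not independent replicates. Alternatives were DESeq2 1.42.0, limma 3.58.1 on log2(FPKM + 1) and log2(FPKM + 0.1), other filters and scalings, the block, each library left out and replicates 2 and 3 alone. Libraries of 14034479 to 15866216 counts set the precision of low genes.

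Named are all 40 genes, Scd1, marker genes at 1 FPKM or at 0, and those of 119 other pathway genes that passed an adjusted p of 0.05 or the thresholds with or without the block. Other genes are named only as copies or neighbours of these. The members and all lists were chosen by function, with no threshold on values, but with earlier results of these data known. Copies were found with BLAST 2.17.0 on GENCODE M21 transcripts, and promoter sequences came from RefSeq (GRCm38.p6). A few markers and neighbouring genes are not reported here.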

Additional observations from a re-analysis of the deposited data

How the results depend on the processing

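With the replicate block, 1 member had an adjusted p under 0.05 in edgeR (0 without it), as did 8 other pathway genes (0 without it) and 452 of all genes (11 without it), and 184 of all genes passed the thresholds of the study (71 without it). Srxn1 was that member, and it alone passed the thresholds. At an unadjusted p under 0.05 the block gave 7 members (3 without it) and 19 other pathway genes (10 without it). DESeq2 gave 1 member, 6 other pathway genes and 266 of all genes by adjusted p, and 161 of all genes by the thresholds. With replicates 2 and 3 alone, 5 members (Srxn1, Nfe2l2, Gsto1, Prdx6 and Tfrc), 13 other pathway genes and 1213 of all genes (12.6%) were called by adjusted p, and 2 members and 369 of all genes passed the thresholds. This choice was made because replicate 1 had been seen to stand apart. No FPKM minimum gave 84 and 148 of all genes by adjusted p and by the thresholds, and a minimum of 5 FPKM gave 18 and 43, and 0 members by the thresholds, since it removes Srxn1. The limma fit on log2(FPKM + 1) gave 17 of all genes by adjusted p and 0 members by the thresholds, with Srxn1 at 0.87. Where 1 library was left out, members called by adjusted p numbered 0 to 1 and by the thresholds 0 to 2, members with a replicate effect 5 to 8 (lowest without Scd-1-/- replicate 1 or 3), other pathway genes 0 to 3, and all genes 2 to 182 by adjusted p (most without Scd-1-/- replicate 1) and 25 to 163 by the thresholds.

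Of the 40 members, 24 kept the sign of their log2 fold change in every alternative in which they were tested (the minimum of 5 FPKM leaves 32 members). Reversed values were at most 0.37 in size and none was a call. With replicates 2 and 3 alone they were -0.059 for Hmox1, -0.064 for Txnrd2, 0.19 for Ncoa4, -0.024 for Pgd and -0.21 for H6pd. With limma on log2(FPKM + 1) and log2(FPKM + 0.1) they were -0.043 and -0.044 for Txnrd1, -0.00031 and -0.0023 for Txnrd2 and -0.0057 and -0.0056 for Pgd, and with the latter 0.033 for Ncoa4. Txnrd1 was at -0.0042 with no FPKM minimum, at -0.021 with library totals and at -0.020 with the block, and Pgd at -0.012 with library totals. With 1 library left out, the log2 fold change ranged from -0.30 to 0.036 for Gclc, -0.043 to 0.15 for Gsr, -0.14 to 1.21 for Gpx1, -0.23 to 0.58 for Mgst3, -0.39 to 0.014 for Keap1, -0.041 to 0.18 for Hmox1, -0.0069 to 0.24 for Txn1, -0.15 to 0.23 for Txnrd1, -0.11 to 0.13 for Txnrd2, -0.40 to 0.21 for Txnip, -0.19 to 0.14 for Prdx1, -0.056 to 0.052 for Sod1, -0.48 to 0.37 for Ncoa4, -0.010 to 0.42 for Aifm2, -0.066 to 0.098 for Pgd and -0.039 to 0.63 for H6pd. Among members that kept their sign, Gss ranged from 0.0027 to 0.29, Cat from 0.011 to 0.27 and Gclm from -0.36 to -0.073. The cause of these shifts was not tested. Counts of 14 to 46 limit Nqo1.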
